A study of Arabidopsis thaliana with 5 samples.

Results

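The genes highest in *ask1* replicate 2 are probe sets of an Affymetrix ATH1 array whose log2 signal in that array was at least 0.8 above each of the other 4 arrays, a difference of 1.74-fold or more. Of 22746 probe sets, 94 met this gap. The rule leaves out 7 genes, *STZ*, *CML38*, *WRKY53*, AT4G27280, AT4G29780, AT2G20670 and AT3G15450, and 2 of them met the gap (AT4G29780 with 0.90 and AT2G20670 with 0.82), so that 92 members remained, or 0.404% of all probe sets. The probe table gives 35 of the 92 members a single gene (38.0%, against 59.4% of all probe sets), and 57 have no gene name here. Of the named members, 34 are protein-coding genes and 1 is a transcribed pseudogene.

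The arrays measured total RNA of unopened flower buds from 3 biological replicates of the homozygous *ask1* mutant, which is in the Landsberg *erecta* background, and 2 of wild-type L*er*, all from plants grown in soil. *ASK1* (*ARABIDOPSIS SKP1-LIKE1*) encodes a subunit of SCF complexes, the ubiquitin ligases in which an F-box protein chooses the protein to be degraded. The study compared bud proteomes of the genotypes to find proteins that *ASK1* may regulate, and their transcripts on these arrays. The level of *ASK1* itself is not reported, since no probe set carries its name here. The 9 floral organ identity genes listed as markers likewise have no named probe set, so the tissue label could not be checked on them. The members were chosen on the values described here, so these values are a description of 1 array against the others and not a test of the mutation.

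Plant transcripts can change within minutes to hours when tissue is touched, wounded, darkened or deprived of sugar. Touch and wounding quickly induce calmodulin-like proteins, WRKY and zinc finger transcription factors and jasmonate synthesis. When sugar falls, the kinase SnRK1 represses growth and induces genes that break down amino acids, lipids and cell wall sugars, so that the cell can respire other substrates.

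*ask1* replicate 2 stood apart from the other *ask1* arrays. Pearson correlations across all probe sets were 0.984 and 0.984 between *ask1* replicate 2 and *ask1* replicates 1 and 3, where 510 and 543 probe sets differed by 2-fold or more. They were 0.988 and 0.989 between *ask1* replicate 2 and L*er* replicates 1 and 2 (411 and 360 such probe sets). The correlation of *ask1* replicates 1 and 3 with each other was 0.996 (24 probe sets that far apart) and that of the L*er* arrays 0.989 (292). By the same gap, before genes were left out, 94 probe sets were highest in *ask1* replicate 2, 1 in *ask1* replicate 1 and 8 in *ask1* replicate 3, against 118 in L*er* replicate 1 and 32 in L*er* replicate 2. A set of this size was therefore not particular to *ask1* replicate 2. Median signals were alike, between 7.07 and 7.18 in the 5 arrays, and in 22.8% to 24.5% of probe sets the signal was under 5, where background limits a ratio.

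**Figure D1:**
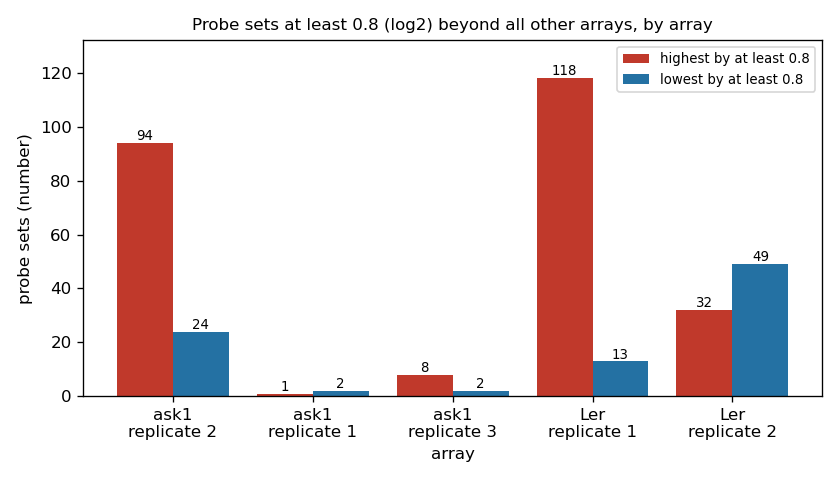
Number of probe sets (vertical axis) that were at least 0.8 on the log2 scale above (red) or below (blue) all other arrays, for each of the 5 arrays. *ask1* replicate 2 was highest in 94 and lowest in 24 probe sets, and L*er* replicate 1 highest in 118.

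Across the 92 members the gap had a median of 1.05 and a maximum of 3.04. It was at least 1 in 53 members and at least 2 in 5. The median signal of the members was 8.62 in *ask1* replicate 2, 6.67 and 6.53 in *ask1* replicates 1 and 3, compared with 7.11 and 6.83 in L*er*. *ask1* replicate 2 therefore exceeded the mean of *ask1* replicates 1 and 3 by a median of 1.69 and the L*er* mean by 1.35, where the medians over all probe sets were -0.03 and -0.02. In 76 members it was at least 2-fold above both other *ask1* arrays, and in 59 at least 2-fold above both L*er* arrays. *ask1* replicates 1 and 3 differed from each other by a median of 0.20 and by at most 0.60, less than the smallest gap of the rule. The L*er* arrays differed by a median of 0.33, and 8 members were at least 2-fold apart between them, 6 with L*er* replicate 2 lower and 2 with L*er* replicate 1 lower. The mean of the other 4 arrays was under 5 in 7 members. In buds measured as a whole, more cells of a type and more RNA per cell cannot be told apart.

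At the threshold, the member AT4G27657 had a signal of 5.76 in *ask1* replicate 2, 4.87 and 4.81 in *ask1* replicates 1 and 3, compared with 4.95 and 4.73 in L*er*, with a gap of 0.81. The 3 other members closest to the limit had no gene name and gaps of 0.80 or 0.81. Just outside lay AT3G21670 with a gap of 0.80, below the limit before rounding (9.54 in *ask1* replicate 2, 8.74 and 8.64 in *ask1* replicates 1 and 3, 8.46 and 7.55 in L*er*), and AT2G19650 with 0.79 (8.18 in *ask1* replicate 2, 7.39 and 7.19 in *ask1* replicates 1 and 3, 7.199 and 6.02 in L*er*). The members thus pass without a break into the probe sets left out.

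In all but 6 members the *ask1* arrays did not lie on one side of the L*er* arrays. In 47 of the 92 (51.1%, against a background of 20.9% of all probe sets) *ask1* replicates 1 and 3 were both below both L*er* arrays, so that *ask1* replicate 2 lay above L*er* and the other *ask1* arrays below it. In 6 members (6.52%, background 19.7%) they were both above both L*er* arrays, and in 39 (42.4%, background 59.3%) the arrays overlapped. The rule bounds all these arrays from above, and nothing is read from the shares. The array next below *ask1* replicate 2 was a L*er* array in 74 members, and the lowest array was *ask1* replicate 1 or 3 in 61. These counts were not made over all probe sets, so nothing is read from them either. In 18 members (19.6%, against 141 or 0.620% of all probe sets) *ask1* replicates 1 and 3 were at least 0.8 below each of the other 3 arrays.

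**Figure D2:**
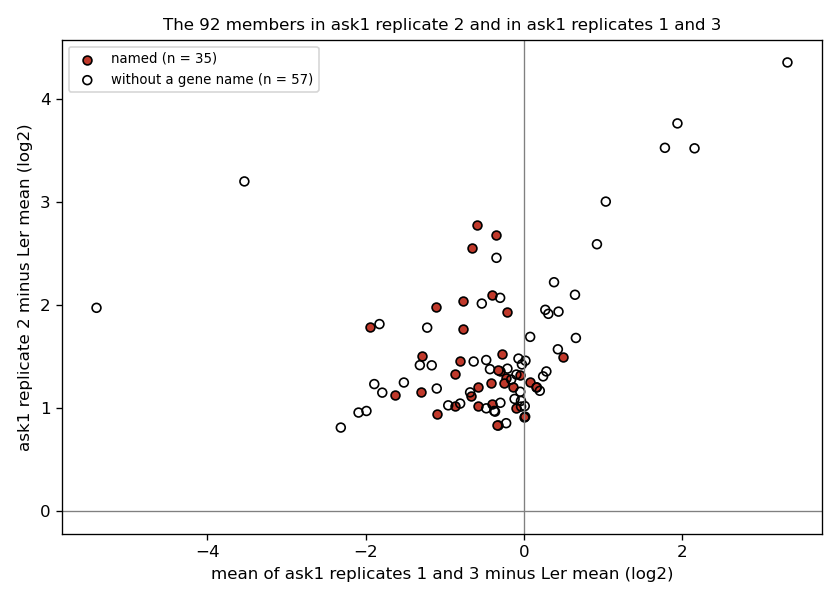
Each point is 1 of the 92 members, with the mean of *ask1* replicates 1 and 3 minus the L*er* mean on the horizontal axis and *ask1* replicate 2 minus the L*er* mean on the vertical axis (both log2). All points lie above 0 on the vertical axis by the rule, and 68 lie left of 0 and 24 right of it on the horizontal axis.

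In the 47 members where *ask1* replicates 1 and 3 lay below L*er*, the median signals were 8.79 in *ask1* replicate 2, 6.32 and 6.27 in *ask1* replicates 1 and 3, compared with 7.53 and 7.33 in L*er*. The L*er* mean stood a median of 37.2% of the way up from *ask1* replicates 1 and 3 to *ask1* replicate 2. The 6 members of the opposite pattern had median signals of 9.80 in *ask1* replicate 2 and 8.33 in each of the other *ask1* arrays, compared with 6.96 and 6.70 in L*er*, so that all 3 *ask1* arrays were above L*er* and *ask1* replicate 2 most.

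Genes known from sugar starvation and darkness were the only functional list with named members. The 57 members without a gene name could not be checked against any list. Of 41 listed genes, 12 have a named probe set, 2 of these are left out by the rule, and 3 are members: *MCCA*, *AKINBETA1* and AT4G27450. *MCCA*, the alpha subunit of the mitochondrial 3-methylcrotonyl-CoA carboxylase of leucine breakdown, had signals of 10.41 in *ask1* replicate 2, 7.31 and 7.33 in *ask1* replicates 1 and 3, and L*er* levels of 8.64 and 8.23. Its level in *ask1* replicate 2 was 8.54-fold that of *ask1* replicates 1 and 3 and 3.94-fold that of L*er*. *AKINBETA1*, which encodes a regulatory beta subunit of SnRK1, had 10.79 in *ask1* replicate 2, 7.99 in both other *ask1* arrays, compared with 9.44 and 9.12 in L*er*. AT4G27450, a relative of aluminium-induced proteins, had 11.10 in *ask1* replicate 2, 8.43 and 8.86 in *ask1* replicates 1 and 3, and L*er* levels of 10.10 and 9.79. In all 3 genes the order was the same, with *ask1* replicate 2 highest, L*er* between and *ask1* replicates 1 and 3 lowest, and the groups of arrays did not overlap.

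The other starvation genes held the same order without reaching the gap in several cases. Of the 7 named genes that are neither members nor left out by the rule, *ask1* replicate 2 was the highest array for 5, while over the whole table it was highest for 3964 of 22746 probe sets. The median difference of *ask1* replicate 2 over these 7 genes was 0.81 from *ask1* replicates 1 and 3 and 0.44 from L*er*. In 5 of the 7, *ask1* replicates 1 and 3 were below both L*er* arrays (background 20.9% of all probe sets). These were not all the same genes as the 5 with *ask1* replicate 2 highest, so fewer than 5 held the full order. The list as a whole had been singled out in earlier results of these arrays, so the 7 genes are no independent support. The widest difference from the other *ask1* arrays among the genes not left out was that of AT1G23390, an F-box gene, with 10.23 in *ask1* replicate 2, 5.93 and 5.60 in *ask1* replicates 1 and 3, compared with 9.41 and 9.58 in L*er*. At the other end stood *GAT1_2.1*, a glutamine amidotransferase gene, at 6.04 in *ask1* replicate 2, 6.45 and 6.18 in *ask1* replicates 1 and 3, and L*er* levels of 5.96 and 6.35, with overlapping arrays. Partners of *MCCA* in leucine breakdown had smaller gaps and are given here after their values were seen. *MCCB*, its beta subunit, had 10.18 in *ask1* replicate 2, 9.27 and 9.48 in *ask1* replicates 1 and 3, compared with 9.77 and 9.67 in L*er*. *IVD*, the isovaleryl-CoA dehydrogenase of the preceding step, had 8.01 in *ask1* replicate 2, 7.29 and 7.40 in *ask1* replicates 1 and 3, and L*er* levels of 7.59 and 7.42. Both kept the order of *MCCA* but spanned less than 1 on the log2 scale.

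**Figure D3:**
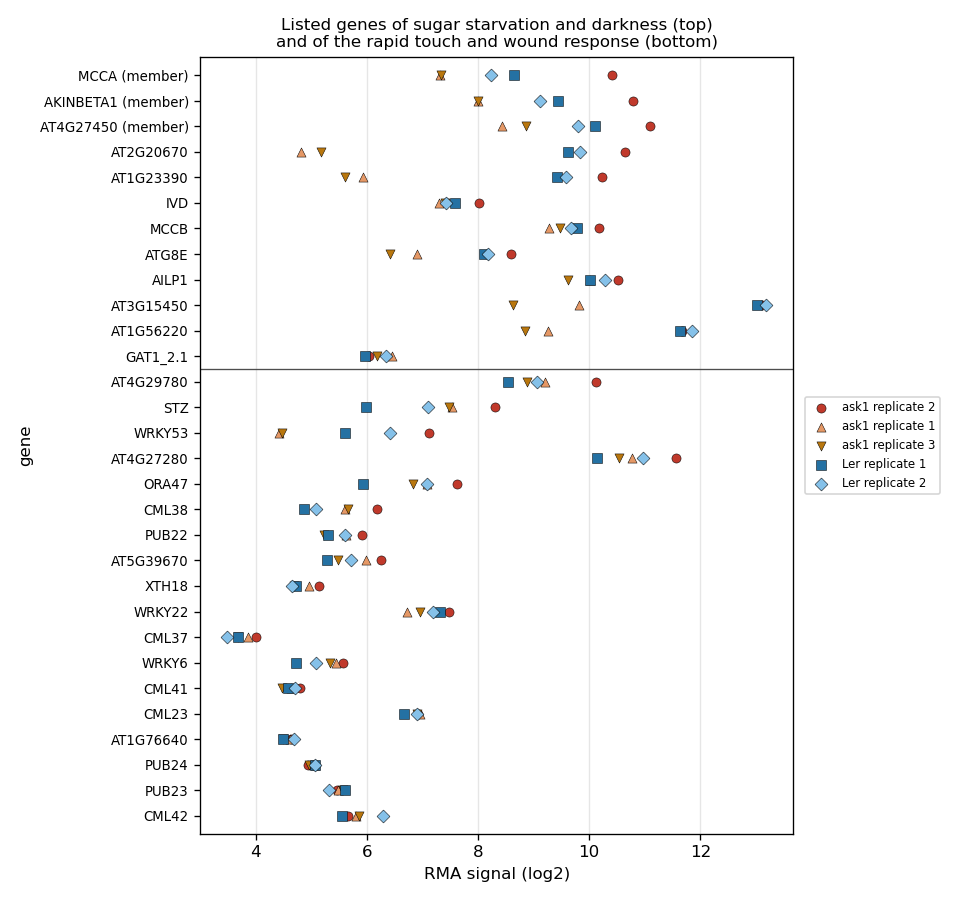
RMA signal (log2, horizontal axis) in each of the 5 arrays for the named genes of the sugar starvation list (top, with its 3 members marked) and of the rapid touch and wound list (bottom, with no member); the 7 genes left out by the rule are among them. *MCCA* stands at 10.41 in *ask1* replicate 2, right of all other arrays, while *CML42* stands within them.

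Of 71 listed rapid touch and wound genes, 18 have a named probe set, and 5 of these are left out by the rule. No named member belonged to this list, and the 57 members without a gene name could not be checked against it. *ask1* replicate 2 was the highest array for 8 of the 13 not left out, by less than the gap of the rule. The median difference of *ask1* replicate 2 over these 13 genes was 0.23 from *ask1* replicates 1 and 3 and 0.23 from L*er*. The widest gap among the genes not left out was that of *ORA47*, an AP2/ERF transcription factor that activates jasmonate synthesis genes, with 7.63 in *ask1* replicate 2, 7.08 and 6.82 in *ask1* replicates 1 and 3, compared with 5.93 and 7.08 in L*er*. Of the left-out genes, *STZ*, *WRKY53*, AT4G27280 and *CML38* had gaps of 0.78, 0.70, 0.59 and 0.53, below the limit, so that of the 5 only AT4G29780 met it. *ask1* replicates 1 and 3 were below both L*er* arrays in 1 of the 13 genes, where the background was 20.9% of all probe sets.

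The remaining lists held no named member, but few of their genes have a named probe set, so most could not be checked. Named were 2 of 27 jasmonate genes, 6 of 23 cold, drought and abscisic acid genes and 3 of 16 heat shock genes. Also named were 3 of 12 salicylate and defence genes, 3 of 7 early auxin genes and 1 of 20 clock genes. *ask1* replicate 2 was the highest array for 0 of 2 jasmonate genes, 0 of 6 cold, drought and abscisic acid genes, 0 of 3 heat shock genes, 1 of 3 salicylate and defence genes, 2 of 3 early auxin genes and not for the single named clock gene *GI*. None of the 12 listed senescence genes and NAC factors was named. The 2 named jasmonate and 3 named heat shock genes were lower in *ask1* replicate 2 than in both other *ask1* arrays. Their median differences of *ask1* replicate 2 from *ask1* replicates 1 and 3 were -1.04 and -1.54. The smallest differences in these lists were -0.33 for *OPCL1* and -0.35 for *ATHSP22.0*, so no direction is read for the whole lists. From L*er*, the median differences of these jasmonate and heat shock genes were 0.19 and 0.47 in *ask1* replicate 2. In *ask1* replicates 1 and 3 they were 1.23 and 2.01. *COR15B*, a cold-induced chloroplast protein gene, was named after its values were seen. It had 6.57 in *ask1* replicate 2, 8.81 and 8.45 in *ask1* replicates 1 and 3, and L*er* levels of 8.70 and 10.65. This was the widest difference of the 6 cold, drought and abscisic acid genes, whose median from *ask1* replicates 1 and 3 was -0.30. In 1 of the 6, *COR47*, *ask1* replicate 2 was the higher, by 0.75, so no direction is read for this list either.

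Most named members thus fell in no listed pathway, and the function of many is known only by protein family. The widest gap of a named member, 2.45, was that of AT3G62950, a glutaredoxin-type protein. Its signal was 6.98 in *ask1* replicate 2, 3.66 and 3.55 in *ask1* replicates 1 and 3, compared with 3.88 and 4.53 in L*er*, a difference of 10.4-fold from the other *ask1* arrays. As its other 4 arrays were all under 5, the fold lies where background limits a ratio. AT1G15330, a protein with CBS domains of the kind that bind adenine nucleotides, had 9.12 in *ask1* replicate 2, 6.18 and 5.98 in *ask1* replicates 1 and 3, and L*er* levels of 6.06 and 6.80. AT2G32150, a haloacid dehalogenase-like hydrolase, had 10.67 in *ask1* replicate 2, 7.70 and 7.22 in *ask1* replicates 1 and 3, compared with 7.67 and 8.55 in L*er*. In both genes the other *ask1* arrays overlapped L*er*, and only *ask1* replicate 2 stood clear.

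Further enzymes of metabolism were members. *BGLU45*, which encodes a beta-glucosidase of monolignol glucosides, the stored precursors of lignin, had 8.09 in *ask1* replicate 2, 5.36 and 5.31 in *ask1* replicates 1 and 3, and L*er* levels of 7.05 and 6.87. AT1G18270, a protein with a class II ketose-bisphosphate aldolase domain, had 9.88 in *ask1* replicate 2, 7.49 and 7.86 in *ask1* replicates 1 and 3, compared with 8.79 and 8.29 in L*er*. AT2G29340, a short-chain dehydrogenase related to tropinone reductases, had 8.64 in *ask1* replicate 2, 6.76 and 6.96 in *ask1* replicates 1 and 3, and L*er* levels of 7.54 and 7.33. These 3 enzymes shared the order of *MCCA*, which 20 of the 35 named members had. AT1G19540, an NmrA-like reductase, did not: it had 8.70 in *ask1* replicate 2, 6.60 and 6.51 in *ask1* replicates 1 and 3, compared with 6.97 and 6.58 in L*er*. The lipase AT1G02660 had 7.72 in *ask1* replicate 2, 6.56 and 6.17 in *ask1* replicates 1 and 3, and L*er* levels of 6.26 and 6.76, also with overlap among the other arrays. The glucosyltransferase gene *UGT73B1*, chosen after its values were seen, had a gap of 0.92 at a low signal, 6.25 in *ask1* replicate 2 and 4.96 to 5.34 in the other 4 arrays.

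Members linked to ubiquitin transfer, transport and stress were each few. The RING-type proteins AT4G17245 and AT5G47610, whose family holds many ubiquitin ligases, differed in pattern. AT4G17245 had 7.25 in *ask1* replicate 2, 4.84 and 4.59 in *ask1* replicates 1 and 3, compared with 5.81 and 5.17 in L*er*. AT5G47610 had 8.09 in *ask1* replicate 2, 6.15 and 6.44 in *ask1* replicates 1 and 3, and L*er* levels of 6.73 and 6.40, where the other arrays overlapped. The MATE-type transporter AT1G15180 had 7.13 in *ask1* replicate 2, 5.55 and 5.51 in *ask1* replicates 1 and 3, compared with 6.17 and 6.05 in L*er*. *SIS*, named for its induction by salt and given here after its values were seen, had 8.79 in *ask1* replicate 2, 7.53 and 7.18 in *ask1* replicates 1 and 3, and L*er* levels of 7.85 and 7.66. Both kept *ask1* replicates 1 and 3 below L*er*, by less than 1 on the log2 scale. AT4G37220, of the cold-acclimation WCOR413 family, had 7.11 in *ask1* replicate 2, 6.05 and 5.80 in *ask1* replicates 1 and 3, compared with 5.77 and 5.94 in L*er*, and its other 4 arrays lay within 0.3 of each other. AT3G10930, a short secreted peptide of the IDA-like type, had 5.90 in *ask1* replicate 2, 4.30 and 4.17 in *ask1* replicates 1 and 3, and L*er* levels of 4.29 and 4.78. The pseudogene AT3G48650 was as dim in the other arrays, with 5.91 in *ask1* replicate 2, 4.53 and 4.23 in *ask1* replicates 1 and 3, compared with 4.46 and 4.77 in L*er*, and whether its probes also read a related gene was not tested.

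**Figure D4:**
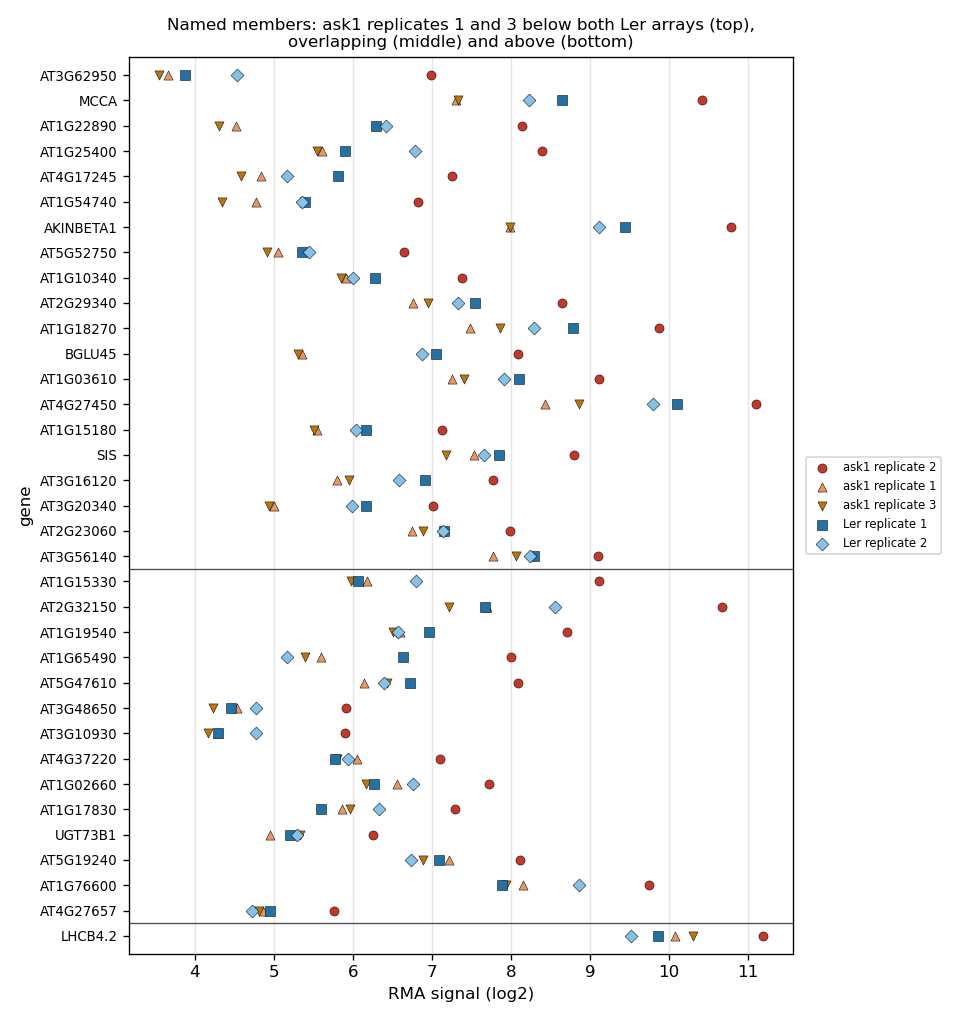
RMA signal (log2, horizontal axis) of the 35 named members in each of the 5 arrays, grouped by whether *ask1* replicates 1 and 3 were below both L*er* arrays (20 members, top), overlapped them (14, middle) or were above both (1, bottom). *ask1* replicate 2 is the point farthest to the right in every row, from 5.76 for AT4G27657 to 11.19 for *LHCB4.2*.

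AT1G22890, whose function is not described here, differed widely between *ask1* replicate 2 and the other *ask1* arrays, with 8.14 in *ask1* replicate 2, 4.52 and 4.31 in *ask1* replicates 1 and 3, and L*er* levels of 6.30 and 6.42. Its ratio of 13.3-fold over *ask1* replicates 1 and 3 rests on signals under 5, where background limits it, as it does for the 14 members (9 of them named) whose mean in these 2 arrays was under 5. AT1G65490 was the only named member with L*er* arrays at least 2-fold apart, at 7.996 in *ask1* replicate 2, 5.60 and 5.39 in *ask1* replicates 1 and 3, compared with 6.63 and 5.17 in L*er*. *LHCB4.2*, the photosystem II antenna protein CP29, was singled out after its values were seen as the only named member with all *ask1* arrays above L*er*. It had 11.19 in *ask1* replicate 2, 10.07 and 10.30 in *ask1* replicates 1 and 3, and L*er* levels of 9.86 and 9.52. *RCA*, rubisco activase and the only named gene of 5 green tissue markers, had 12.77 in *ask1* replicate 2, 12.27 and 12.51 in *ask1* replicates 1 and 3, compared with 12.47 and 12.16 in L*er*.

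The other named members had smaller gaps or less known functions. They were AT1G25400, AT1G54740, AT5G52750 with a heavy-metal-associated domain, AT1G10340 with ankyrin repeats, the DUF789 genes AT1G03610 and AT1G17830, AT5G19240, AT1G76600, the dynein light chain AT3G16120, AT3G20340, the acetyltransferase AT2G23060 and AT3G56140. AT1G25400 led them with 8.39 in *ask1* replicate 2, 5.61 and 5.55 in *ask1* replicates 1 and 3, and L*er* levels of 5.90 and 6.79. AT1G54740 had 6.83 in *ask1* replicate 2, 4.78 and 4.35 in *ask1* replicates 1 and 3, compared with 5.39 and 5.36 in L*er*. AT1G03610 had 9.12 in *ask1* replicate 2, 7.25 and 7.41 in *ask1* replicates 1 and 3, and L*er* levels of 8.10 and 7.91. All of these had *ask1* replicates 1 and 3 below both L*er* arrays. So did AT5G52750, with 6.65 in *ask1* replicate 2, 5.06 and 4.91 in *ask1* replicates 1 and 3, compared with 5.35 and 5.45 in L*er*. AT1G10340 had 7.38 in *ask1* replicate 2, 5.92 and 5.86 in *ask1* replicates 1 and 3, and L*er* levels of 6.28 and 6.00, which was the same order in smaller steps. In AT1G17830 the other arrays overlapped, with 7.29 in *ask1* replicate 2, 5.87 and 5.96 in *ask1* replicates 1 and 3, compared with 5.60 and 6.33 in L*er*. Over all 35 named members, *ask1* replicate 2 was 0.92 to 3.73 above the mean of *ask1* replicates 1 and 3.

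The widest gap of all members, 3.04, was that of a probe set without a gene name, chosen after its values were seen. It had 11.58 in *ask1* replicate 2, 4.70 and 5.00 in *ask1* replicates 1 and 3, compared with 8.54 and 8.22 in L*er*. The brightest member, also without a gene name and chosen so, had 12.63 in *ask1* replicate 2, 5.41 and 5.09 in *ask1* replicates 1 and 3, and L*er* levels of 10.61 and 10.69. Both kept the order found in 47 of the 92 members, with wider differences from *ask1* replicates 1 and 3 than any named member.

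By position in the RefSeq annotation of TAIR10.1, the named members lay on chromosomes 1 to 5 in numbers of 15, 3, 7, 5 and 5, where 25.7%, 16.3%, 20.5%, 14.6% and 22.4% of all named genes lie. None were neighbours, and the closest pair was 16 places apart in gene order. Their median gene length was 1633 bases, against 2117 for all named genes.

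In the comparison of genotypes, leaving out *ask1* replicate 2 must lower every member's ratio, since the rule picked members for a high value there. Over the members the log2 ratio of *ask1* to L*er* had a median of 0.27 with all 5 arrays (all probe sets -0.01) and -0.33 without *ask1* replicate 2 (all probe sets 0.00). The ratio was above 0 in 65 members (70.7%, against 47.5% of all probe sets) with all arrays and in 24 (26.1%, against 50.4%) without *ask1* replicate 2, and 41 turned from a positive to a negative ratio. *MCCA* had log2 ratios of -0.08 with all arrays and -1.12 without *ask1* replicate 2, *AKINBETA1* -0.36 and -1.29, and AT1G22890 -0.70 and -1.95. AT2G32150 changed sign, with 0.42 and -0.66, and *LHCB4.2* did not, with 0.83 and 0.50.

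With all arrays, 4 members, none of them named, were at least 2-fold higher in *ask1* at an unadjusted p under 0.05 by limma, where the background was 0.457% of all probe sets. None passed an adjusted p under 0.05 by limma or by the methods' t-test. An unadjusted p under 0.05 was found in 5 members by limma (5.43%, against 6.93% of all probe sets) and in 2 by the methods' t-test (2.17%, against 5.84%). Without *ask1* replicate 2, 18 members were lower in *ask1* at an adjusted p under 0.05 by limma (background 0.928%), and 2 were higher (background 0.712%). The 18 include *MCCA*, *AKINBETA1*, AT4G27450, *BGLU45*, AT1G22890 and AT3G20340. For the sugar starvation list 0 of 12 genes passed the adjusted limma test with all arrays and 8 were lower without *ask1* replicate 2. The members were chosen on these arrays, so the counts describe them and nothing is read from the difference to the background.

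Markers of single tissues were few here, and their part in the members' values was not tested. Of 12 tapetum and anther genes 2 were named, *AMS* and *A9* (AT5G07230), and their mean signal was 6.50 in *ask1* replicate 2, 6.89 and 7.06 in *ask1* replicates 1 and 3, compared with 8.71 and 6.46 in L*er*. The 3 named mature pollen genes of 7 had a mean signal of 7.70 in *ask1* replicate 2, 7.55 and 7.64 in *ask1* replicates 1 and 3, compared with 7.39 and 7.34 in L*er*. These genes differed: *TUA1* was highest in *ask1* replicate 2, by 0.47, and *ACT11* was above L*er* in all *ask1* arrays. *ACT12* was under 5 in every array. The meristem gene *CLV3* had 5.47 in *ask1* replicate 2, 5.69 and 5.48 in *ask1* replicates 1 and 3, compared with 5.26 and 5.39 in L*er*. None of these levels set *ask1* replicate 2 apart by the 0.8 of the rule.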

How the data were processed

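The deposited values are log2 signals of ATH1 probe sets that the authors obtained by RMA (background correction, quantile normalization of the arrays and a summary per probe set), so that differences between arrays in total signal are removed. The table holds 3 *ask1* and 2 L*er* arrays, and 0 of its columns were left unused. The study's methods count 4 L*er* replicates, while the values used here hold fewer, so that the gap over every other array and all L*er* values rest on the 2 L*er* arrays used. Of 22746 probe sets, 13513 have a single gene in the platform's probe table, 503 have several and 8730 have none, and 13436 of the single genes were found in RefSeq (TAIR10.1). Members were picked by the gap of 0.8 over each other array. The members and gene lists were chosen with earlier results of these data known. The protein families given for loci with only a code are general background, not taken from the probe table. Genotypes were compared by limma 3.58.1, run in R 4.3.3 with lmFit and eBayes (2-sided tests, Benjamini-Hochberg adjustment over all 22746 probe sets, tested on simulated data), and by the methods' t-test as an alternative, with the study's criteria of 2-fold and an unadjusted p under 0.05. The p-values measure the spread between biological replicates, and the number of arrays limits their precision. Values per array are given for the 25 named members with the widest gaps, the members of the 9 function lists and probe sets next to the limit, and of other listed genes those with the widest and narrowest differences. Exceptions are said to be chosen after their values were seen. Alternatives were other gaps, centring, quantile normalization, a filter on dim probe sets, limma with an intensity trend, a replicate block and leaving out each array. Promoter motifs were planned but not analysed here, as no sequence was used.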

Additional observations from a re-analysis of the deposited data

How the results depend on the processing

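With a gap of 0.6 there were 184 members and with a gap of 1.0 there were 53, against 92. *ask1* replicates 1 and 3 were above both L*er* arrays in 22 and 3 of these and below both in 97 and 28. Centring and quantile normalization each gave 90, of which 87 and 86 were among the 92. Leaving out 1 array from the rule gave 100 to 149 (149 without either L*er* array). Members at least 2-fold higher in *ask1* with an unadjusted p under 0.05 numbered 4 by limma and 2 by the methods' t-test. Such members numbered 6 with a replicate block, and 3 to 7 when 1 array was left out (7 without L*er* replicate 1). Members at an adjusted p under 0.05 numbered 0 by limma and 0 to 20 when 1 array was left out (20 without *ask1* replicate 2). The median log2 ratio of the members, 0.27, was 0.51 with a replicate block and -0.33 to 0.51 when 1 array was left out, the lowest and only negative value being that without *ask1* replicate 2. Members with the remaining *ask1* arrays above the remaining L*er* arrays numbered 12 to 22, and below them 52 to 62, when 1 of these 4 arrays was left out, since fewer arrays must then be ordered. The replicate block gives the median without *ask1* replicate 3, whose number no L*er* array shares. Signals under 5 limit folds over *ask1* replicates 1 and 3 in 14 members. For the replicate block, deviations from the group means of arrays with the same number had correlations of -0.26 and -0.01, and the labels give the numbers no shared origin, so the numbers do not pair the arrays.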
